A study of Mus musculus with 12 samples.

Results

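The oocyte homeobox genes of the Obox family and the oocyte members of the Tcl1 family, with the oocyte gene Oog1, were followed in single cells of mouse embryos. The 9 genes were Obox1, Obox2, Obox5, Obox6, Tcl1, Tcl1b1, Tcl1b2, Tcl1b3 and Oog1. They were chosen by name, from the array probes whose gene name or RefSeq accession pointed to them, and not by their values. Of the 9 genes, 8 had a probe, with 1 probe and 1 spot each, among the 41174 probes of the array, which name 22410 genes, and no probe was matched to Obox1. The data are Agilent array profiles of 12 blastomeres, the cells that arise when the fertilised egg divides. Each of 6 embryos of naturally mated CF-1 mice, an outbred stock, was taken 36 h after mating and separated into cell 1 and cell 2. Experiment 2 held pairs D, G and H and experiment 1 held pairs D, I and L, so that each experiment had 6 cells of 3 embryos. No cell was treated and all 12 were of the same 2-cell stage, flushed from the oviduct, with the RNA of each cell amplified before labelling. The labels do not say what the cell numbers stand for or whether the embryos shared a mother, so the p-values measure the spread between these samples.

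OBOX proteins carry a homeodomain, a DNA-binding fold of transcription factors. Obox1, Obox2, Obox5 and Obox7 are known as maternal genes, transcribed in the growing oocyte, and Obox3 as one that the embryo itself switches on. Mouse embryos that lack several Obox genes at once stop in cleavage with a faulty start of transcription from their own genome. TCL1 binds the kinase AKT and raises its activity, and female mice without Tcl1 are subfertile because their embryos cleave poorly. OOG1 is an oocyte protein that moves into the nucleus around the first cleavage and binds RALGDS, an exchange factor for Ral GTPases.

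The genes lie in clusters of close copies. In assembly GRCm38.p6, Obox2, Obox1, Obox5 and Obox6 span 451 kb of chromosome 7 (15388851 to 15839679). Tcl1b2, Tcl1b1, Tcl1b3 and Tcl1 span 75.7 kb of chromosome 12 (105147019 to 105222737), and Oog1 lies farther up the same chromosome (87602665 to 87608845). The RefSeq promoter table of that assembly held 8 of the 9 genes, Obox6 being the one without an entry. The 250 bases upstream of the annotated start are printed 5′ to 3′ in lower case to show how alike the copies are. Capitals mark E-boxes (CANNTG, where N is any base, which reads the same on both strands), the motif of the basic helix-loop-helix family to which oocyte factors such as FIGLA and SOHLH1 belong.

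The Obox promoters are from the plus strand, at chr7:15547007-15547256 for Obox1, chr7:15388601-15388850 for Obox2 and chr7:15750120-15750369 for Obox5.
Obox1: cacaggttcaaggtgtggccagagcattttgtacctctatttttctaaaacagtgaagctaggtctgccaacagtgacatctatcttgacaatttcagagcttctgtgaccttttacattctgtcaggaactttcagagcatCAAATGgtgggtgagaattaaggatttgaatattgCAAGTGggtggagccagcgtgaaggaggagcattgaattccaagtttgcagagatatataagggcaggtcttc
Obox2: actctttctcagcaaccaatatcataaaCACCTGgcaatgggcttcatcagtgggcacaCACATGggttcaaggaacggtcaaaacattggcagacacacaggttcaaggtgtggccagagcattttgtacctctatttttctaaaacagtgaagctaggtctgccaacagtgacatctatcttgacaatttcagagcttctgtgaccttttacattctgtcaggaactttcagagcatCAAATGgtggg
Obox5: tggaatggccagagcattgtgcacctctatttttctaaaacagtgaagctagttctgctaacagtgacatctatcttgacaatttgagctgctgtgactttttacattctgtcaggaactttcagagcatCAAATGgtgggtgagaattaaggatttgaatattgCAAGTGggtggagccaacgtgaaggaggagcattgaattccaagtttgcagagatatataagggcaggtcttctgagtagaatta
Obox1 and Obox5 were 87.8% identical in a global alignment and held the same E-box pair, CAAATG and CAAGTG, 35 bases apart. In Obox2 the annotated start lay farther upstream: its last 153 bases were the first 153 of the Obox1 window without a mismatch, so that only the first E-box of the pair, CAAATG, fell inside its window. Obox2 and Obox5 shared 42 bases in 1 run, in the last stretch of the Obox2 window.

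The Tcl1 family promoters are at chr12:105222738-105222987 on the minus strand for Tcl1, and on the plus strand at chr12:105159454-105159703 for Tcl1b1, chr12:105146769-105147018 for Tcl1b2 and chr12:105190795-105191044 for Tcl1b3.
Tcl1: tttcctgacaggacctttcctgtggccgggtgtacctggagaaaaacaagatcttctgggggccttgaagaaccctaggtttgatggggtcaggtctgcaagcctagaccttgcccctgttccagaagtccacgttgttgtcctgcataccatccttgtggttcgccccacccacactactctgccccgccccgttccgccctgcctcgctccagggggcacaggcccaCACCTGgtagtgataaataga
Tcl1b1: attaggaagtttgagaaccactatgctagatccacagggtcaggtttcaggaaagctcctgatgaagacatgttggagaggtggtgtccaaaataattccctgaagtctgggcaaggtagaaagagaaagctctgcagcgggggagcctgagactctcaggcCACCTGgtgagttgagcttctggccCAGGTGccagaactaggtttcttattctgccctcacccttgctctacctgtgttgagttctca
Tcl1b2: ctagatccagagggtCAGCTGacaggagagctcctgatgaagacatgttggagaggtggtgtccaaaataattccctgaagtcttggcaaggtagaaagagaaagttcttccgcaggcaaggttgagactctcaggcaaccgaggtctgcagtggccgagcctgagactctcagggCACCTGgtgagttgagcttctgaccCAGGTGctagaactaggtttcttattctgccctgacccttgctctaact
Tcl1b3: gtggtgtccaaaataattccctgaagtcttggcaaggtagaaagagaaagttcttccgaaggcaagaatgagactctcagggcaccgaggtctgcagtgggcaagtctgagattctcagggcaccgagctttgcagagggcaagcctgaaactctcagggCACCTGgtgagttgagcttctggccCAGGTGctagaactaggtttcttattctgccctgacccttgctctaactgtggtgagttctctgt
All 3 Tcl1b windows held CACCTG followed by CAGGTG, its reverse complement, with 25 bases from the start of one to the start of the other. They were 61.6 to 68.5% identical to each other and shared runs of 32 to 58 bases. Tcl1 held CACCTG alone, was 48.0 to 49.5% identical to the 3 Tcl1b windows and shared no run longer than 9 bases with any of them.

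The Oog1 promoter is at chr12:87602415-87602664 on the plus strand.
Oog1: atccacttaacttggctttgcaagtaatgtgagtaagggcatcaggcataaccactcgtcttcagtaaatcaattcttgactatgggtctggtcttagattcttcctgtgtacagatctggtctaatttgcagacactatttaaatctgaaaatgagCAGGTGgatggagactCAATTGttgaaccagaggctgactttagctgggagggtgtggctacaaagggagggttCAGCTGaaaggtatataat
It held 3 E-boxes: CAGGTG came first, then CAATTG and last CAGCTG. An E-box was present in 8 of the 8 promoters of the families printed here, against 66.2% of the 32851 promoters in the table over windows of the same length, so most promoters hold one. Other motifs were searched on both strands, overlapping matches included. TAATTG and TAATTA, which differ in the last letter and are bound by the oocyte homeodomain protein NOBOX, were in 0 of 8 (7.17 and 4.84% of all promoters). TAATCC, bound by homeodomains of the CRX and OTX type, was in 0 of 8 (6.25%), TATAAA in 0 of 8 (12.4%) and CCAAT in Obox2 alone (33.8%). A match is a description of letters and not a binding site, and the absence of one holds for these windows alone.

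Across arrays, 31.2 to 78.8% of non-control spots were well above background in experiment 2 and 22.1 to 41.7% in experiment 1. Experiment 2 was scanned in Cy3, and the signal of experiment 1 sat in Cy5 although the labels name Cy3 for all. The experiments thus differ in dye, scan protocol and slides at once, and these cannot be told apart. The labelled cell type showed its markers: 11 to 13 of 13 oocyte and early embryo genes were well above background in each cell of experiment 2 and 10 to 12 in each cell of experiment 1. Markers of oviduct epithelium differed between the experiments, with summed levels over 10 genes of 0.574 to 1.91 in experiment 2 and 8.82 to 66.5 in experiment 1, on the linear scale where 1 is the 75th percentile of an array. Blood and macrophage markers (6 genes) summed to 0.344 to 0.402 in experiment 2 and 4.71 to 219.6 in experiment 1, and cumulus markers (13 genes) to 0.755 to 1.60 in experiment 2 and 0.746 to 1.30 in experiment 1. The blood sum of experiment 1 rested largely on Lyz2, at log2 levels of 2.07 to 7.77 there. Of 9 oviduct genes tested between the experiments, 2 had a higher mean in experiment 2. Per cell, 5 to 9 oviduct genes were well above background in experiment 2 and 8 to 9 in experiment 1. For blood genes these counts were 1 to 5 in experiment 2 and 2 to 4 in experiment 1, and for cumulus genes 2 to 10 and 0 to 4.

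Levels are given as log2 of the signal divided by that percentile, so that 0 is the percentile, with a common floor at -4.12 under which signals have no order. A level holds for its own probe and is not set against that of another gene. The probe sequences were not used here, so how far a probe also binds transcripts of a close copy was not tested, and every value stands for the probe named after the gene. None of the 8 probes was saturated in any cell. Of the 8, 6 were well above background in all 12 cells, Obox2 in 11 cells, and Obox6 in 6 cells. All 8 entered the tests, which took the 16694 probes well above background in at least 6 cells. Obox6 entered through experiment 2 alone, where all its 6 detected cells lie.

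Among the Obox genes chosen here, Obox5 alone was well above background in every cell. Its level had a lowest value of -1.01, a median of -0.42 and a highest of 0.76 in experiment 2, against -2.53, -1.35 and -0.04 in experiment 1. The experiments overlapped: both cells of pair L of experiment 1 (-0.04 and -0.55) lay inside the range of experiment 2. By embryo, pair H was highest in experiment 2 with a mean of 0.35, its cells overlapping those of pair D (-0.30), and both were above pair G (-0.94). In experiment 1 pair L (-0.29) stood above pairs I (-1.51) and D (-1.92), whose cells overlapped.

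Obox2 was dim. Its lowest, median and highest levels were -4.12, -3.06 and -2.62 in experiment 2, against -4.12, -3.98 and -2.15 in experiment 1. The probe lay at the floor in 3 cells: cell 1 of pair G, and in experiment 1 cell 1 of pair D and cell 2 of pair I. The order of embryos was the same as for Obox5 in experiment 2, with pairs H (-2.87) and D (-2.95) overlapping and pair G at -3.91. In experiment 1 pair L (-2.54) again stood above pair D (-4.00) and pair I (-4.10), which did not differ beyond their cells.

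Obox6, a family member that can aid the reprogramming of mouse somatic cells, was well above background in 6 of 6 cells of experiment 2 and in 0 of 6 of experiment 1. In experiment 2 cell 1 of pair G and both cells of pair H lay under the floor. Before flooring, cell 1 of pair G was at -6.17, and cells 1 and 2 of pair H at -6.62 and -6.48. The 6 cells of experiment 1 averaged -6.00 before flooring, so these detection calls do not order the levels of the experiments. Detection is called on each array by itself, and how many probes of the array split like Obox6 was not counted. Above the floor were both cells of pair D (-3.15 in cell 2 and -3.85 in cell 1) and, at the floor within rounding, cell 2 of pair G (-4.12). With all 6 cells of experiment 1 and 3 of experiment 2 at the floor, no fold between the experiments is given for this gene.

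**Figure D1:**
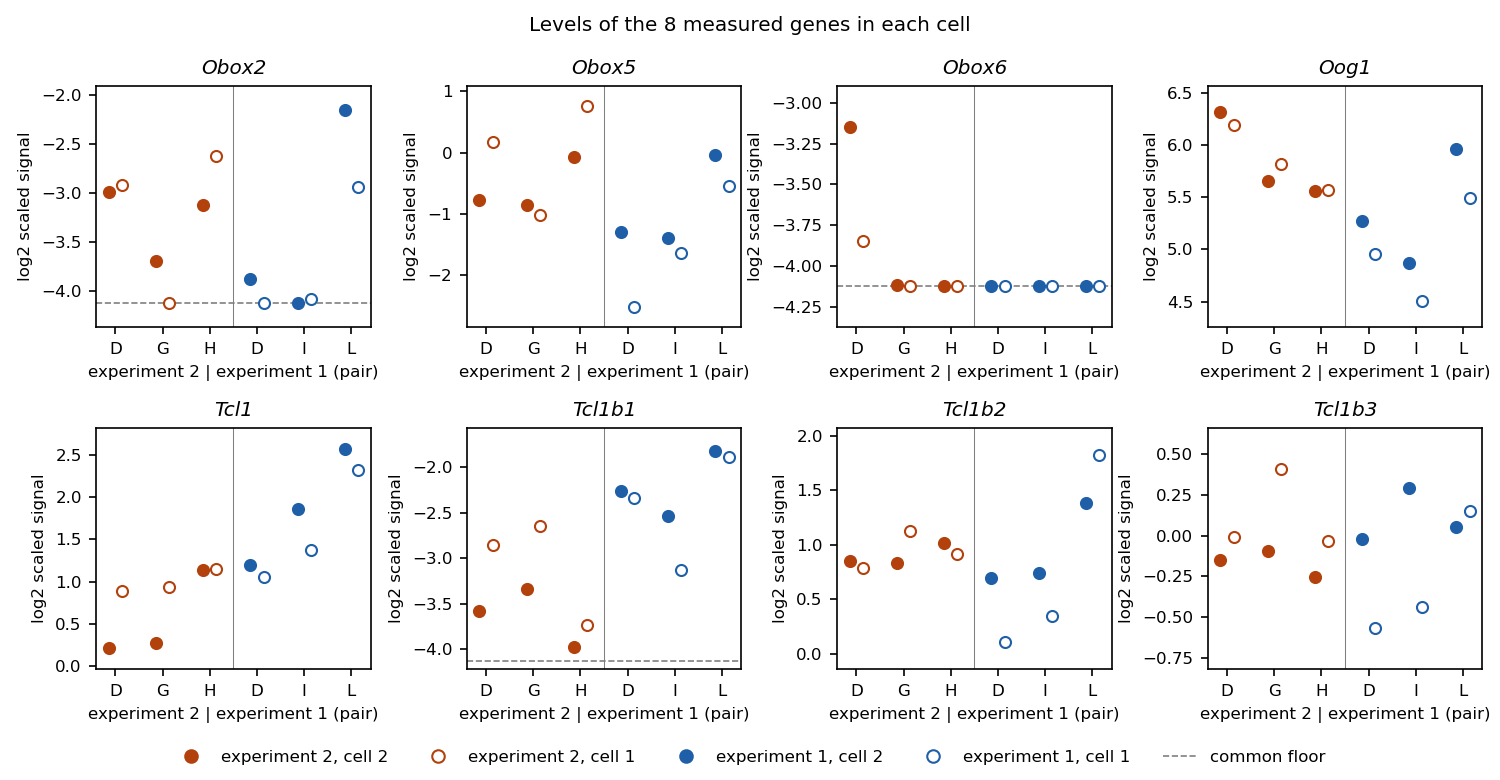
Levels of the 8 measured genes in each of the 12 cells. The vertical axis is log2 of the signal over the array's 75th percentile and differs between panels; the horizontal axis lists the pairs of experiment 2, then those of experiment 1. Each point is 1 cell, filled for cell 2 and open for cell 1, and the dashed line is the floor of -4.12. Pair L is the highest embryo of experiment 1 in the 7 panels other than Obox6.

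Tcl1, the AKT partner that gave the family its name, was measured in all 12 cells. Its lowest, median and highest levels were 0.21, 0.91 and 1.16 in experiment 2, against 1.06, 1.62 and 2.57 in experiment 1. The experiments overlapped through cell 1 of pair D of experiment 1 (1.06), which lay below both cells of pair H of experiment 2 (1.14 and 1.16). In experiment 1 the embryos did not overlap: pair L averaged 2.44, pair I 1.62 and pair D 1.13. In experiment 2 pair H (1.15) stood above pairs G (0.60) and D (0.55), which overlapped.

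The Tcl1b genes are mouse copies of the human gene TCL1B. Tcl1b1 had a lowest level of -3.97, a median of -3.45 and a highest of -2.65 in experiment 2, against -3.13, -2.30 and -1.82 in experiment 1. Only 3 cells lay in the overlap, cell 1 of pairs D (-2.85) and G (-2.65) of experiment 2 and cell 1 of pair I (-3.13) of experiment 1. Pair L was highest in experiment 1 (-1.85), above pair D (-2.30) and pair I (-2.83), with no overlap between neighbours.

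Tcl1b2 and Tcl1b3 differed least between the experiments. Tcl1b2 ran from 0.79 over a median of 0.89 to 1.13 in experiment 2, against 0.11, 0.72 and 1.82 in experiment 1. All 6 cells of experiment 2 fell inside the range of experiment 1, and the SD was 0.13 in experiment 2 and 0.64 in experiment 1 (n = 6 cells each). Within experiment 1, pair L averaged 1.60, against 0.55 in pair I and 0.40 in pair D, which overlapped. Tcl1b3 ran from -0.25 over -0.06 to 0.41 in experiment 2, against -0.57, 0.02 and 0.29 in experiment 1, and in both experiments each embryo overlapped its neighbour in the order.

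Oog1, the partner of RALGDS, gave a bright signal in every cell. Its lowest, median and highest levels were 5.56, 5.74 and 6.31 in experiment 2, against 4.51, 5.11 and 5.96 in experiment 1. Its embryos were separate in both experiments. The means were 6.25 in pair D, 5.74 in pair G and 5.56 in pair H of experiment 2, and 5.73 in pair L, 5.11 in pair D and 4.69 in pair I of experiment 1. Pair L of experiment 1 overlapped pairs G and H of experiment 2, and pairs D and I lay below all 6 cells of experiment 2.

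The first comparison asked whether the genes differed between embryos of an experiment. Pair L of experiment 1 had the highest mean of its experiment for each of the 7 probes above the floor there, while in experiment 2 the highest embryo was pair D for 2, pair G for 3 and pair H for 3 of the 8 probes. Over all tested probes that varied within an experiment, pair L was the highest embryo of experiment 1 for 53.8% of 15584, and pair D that of experiment 2 for 65.1% of 15994. Over the probes well above background in all 12 cells the share of pair L was 42.7%. Oocyte and early embryo markers also summed highest in pair L among the embryos of experiment 1 (82.4 and 92.3 in its cells, against 62.5 and 79.9 for pair I and, for pair D, 49.8 and 59.1). Its oviduct sum was the lowest there, at 8.82 and 10.8, and its blood and macrophage sum the highest, at 28.9 and 219.6; their part in the levels of these genes was not tested.

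None of these embryo differences passed. An F test in limma on all 4 contrasts between embryos of the same experiment called 0 of the 8 probes at a Benjamini-Hochberg adjusted p under 0.05, where it called 1.40% of all tested probes (234). At an unadjusted p under 0.05 it counted 5 of 8, beside 29.8% of all tested probes. Fitted alone, experiment 2 gave 0 of 8 beside 4.70% of the array (unadjusted 2 of 8 beside 36.7%), and experiment 1 gave 0 of 8 beside 0% (unadjusted 5 of 8 beside 9.08%). With contrasts kept to embryos that shared a slide, limma called 0 of 8, beside 47 probes of the array (unadjusted 6 of 8, beside 2121 probes). Within the slide of pairs H and G it called 0 of 8, beside 6 probes (unadjusted 3 of 8, beside 1567). Within that of pairs L and I it called 0 of 8, beside 69 probes (unadjusted 6 of 8, beside 1857). Each adjusted p that follows is that of the F test on all 4 contrasts. The embryos named beside it are those with the widest span and were not tested as a pair. The widest span of Obox2 was at least 2.95-fold, between pair L and pair I of experiment 1, whose cell 2 lay at the floor (adjusted p = 0.0647). For Oog1 pair L exceeded pair I 2.06-fold (adjusted p = 0.0877). For Tcl1b2 and Tcl1 pair L exceeded pair D 2.30-fold and 2.49-fold, at adjusted p = 0.109 and 0.118. Obox5 spanned 3.08-fold (adjusted p = 0.147), Tcl1b1 1.97-fold (0.168) and Tcl1b3 1.31-fold (0.741). Obox6 in pair D of experiment 2 was at least 1.54-fold above pair H, which lay at the floor in both cells (adjusted p = 0.257), and with a floor for each array its span was 3.05 log2 units in place of 0.63. Obox2 passed under 2 other scalings, where its span was smaller (1.04 and 0.73 against 1.56 log2 units). Those scalings called 334 to 464 probes of the array, beside 234. Obox6 passed with normexp background correction and with that floor for each array, where 6698 and 4356 probes of the array were called. Without 1 cell, which leaves an embryo with 1 cell, the span ran from 1.17 to 1.95 log2 units for Obox2. For Oog1 it then ran from 0.80 to 1.28.

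The study split embryos to compare sister cells. Among the 16694 tested probes the median absolute difference was 0.34 log2 units between the cells of an embryo (6 pairs per probe) and 0.56 between cells of different embryos of an experiment (24 pairs), and the first was the smaller for 65.3% of probes. Twins were closer than cells of different embryos for 5 of the 8 genes. For Obox2 the medians were 0.33 between twins and 0.98 between embryos, for Oog1 0.24 and 0.58, and for Tcl1 0.36 and 0.71. Obox5 (0.67 and 0.99) and Tcl1b1 (0.41 and 0.58) were the other two. Tcl1b2 (0.34 and 0.26) and Tcl1b3 (0.36 and 0.24) differed more between twins than between embryos, and for Obox6 both medians were 0 because most of its values lay at the floor. The widest gap between twins was that of Obox5 in pair D of experiment 1, at 1.22 log2 units.

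The numbered cells were then compared. No gene was higher in cell 2, or in cell 1, in all 6 pairs. Oog1 was higher in cell 2 in 4 of 6 pairs, by 0.19 ± 0.12 log2 units on average (SE, n = 6 pairs), and Tcl1b1 lower in cell 2 in 3 of 6, by -0.15 ± 0.20. The other mean differences ran from -0.08 for Tcl1 to 0.14 for Obox2. Limma called 0 of the 8 probes (adjusted p from 0.674 to 0.965) and, at an unadjusted p under 0.05, 0 of 8. Over the whole array it called 0% of probes, and 4.41% at an unadjusted p under 0.05. Each experiment alone also gave 0 of 8, with 1 of 8 unadjusted in experiment 2 (beside 3.43%) and 1 of 8 in experiment 1 (beside 5.56%). The all-probe median of this difference was 0.11, and -0.15 when each array was scaled over all probes, a setting that moves the genes together (Oog1 then had -0.32).

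**Figure D2:**
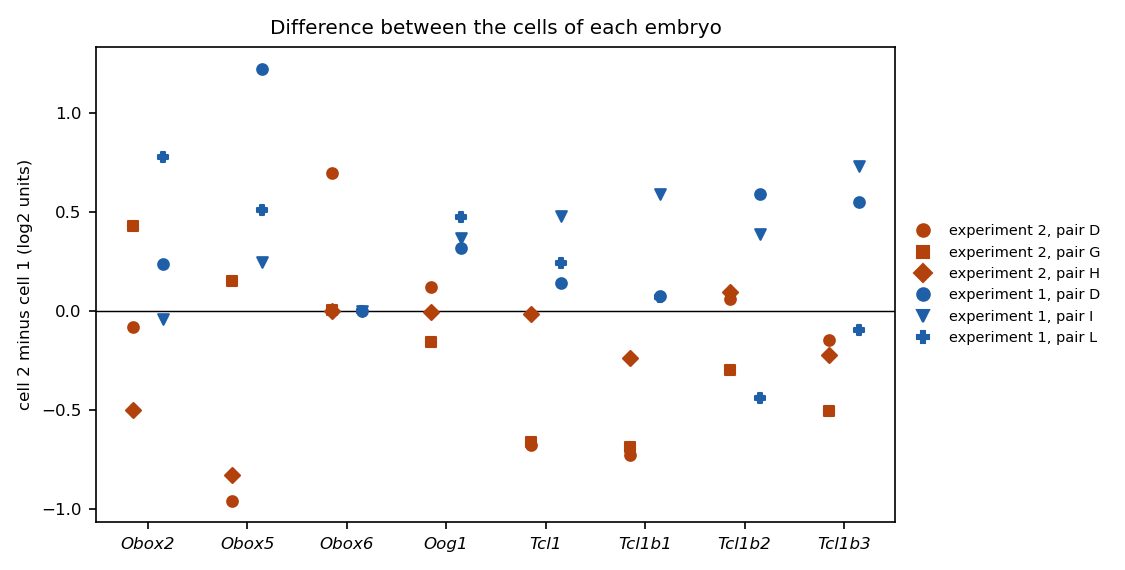
Difference between the cells of each embryo, as cell 2 minus cell 1 in log2 units, for the 8 measured genes. Each point is 1 embryo, with experiment 2 left of experiment 1 for each gene. For Tcl1 and Tcl1b1 the 3 points of experiment 2 lie below 0 and the 3 of experiment 1 above it.

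For Tcl1 and Tcl1b1 the cell differences had one sign in the pairs of experiment 2 and the other in those of experiment 1, a contrast that did not pass its test. Tcl1 was lower in cell 2 in 3 of 3 pairs of experiment 2, by -0.67 in pair D, -0.66 in pair G and -0.01 in pair H, and higher in cell 2 in 3 of 3 pairs of experiment 1, by 0.14 in pair D, 0.48 in pair I and 0.24 in pair L. Tcl1b1 differed by -0.73, -0.69 and -0.24 in pairs D, G and H of experiment 2, and by 0.08, 0.59 and 0.07 in pairs D, I and L of experiment 1. For Obox5 the mean cell difference was -0.54 ± 0.61 in experiment 2 and 0.66 ± 0.50 in experiment 1 (SD, n = 3 pairs each), with cell 2 higher in 1 pair of experiment 2 and in all 3 of experiment 1. Oog1 was higher in cell 2 in 3 of 3 pairs of experiment 1 and in 1 of 3 of experiment 2.

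The difference between the experiments in these cell contrasts was tested as an interaction in limma. It was -0.74 ± 0.27 log2 units for Tcl1, -0.80 ± 0.27 for Tcl1b1 and -1.20 ± 0.43 for Obox5 (SE). Those were the 3 of 8 genes with an unadjusted p under 0.05, beside 5.27% of all tested probes. None passed (adjusted p = 0.934, 0.920 and 0.931 in limma), and limma called 0% of the array. Since nothing in the labels ties the cell numbers of one embryo to those of another, opposite signs in different embryos have no fixed direction.

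Experiment 2 was next set against experiment 1, a contrast that also changes dye, scan protocol and slides. Tcl1 and Tcl1b1 had the lowest differences: Tcl1b1 averaged -3.35 ± 0.51 in experiment 2 and -2.33 ± 0.48 in experiment 1, and Tcl1 0.77 ± 0.42 in experiment 2 and 1.73 ± 0.62 in experiment 1 (SD, n = 6 cells of 3 embryos). The fit with embryo as a random block gave -1.02 ± 0.32 log2 units for Tcl1b1 (SE; 2.03-fold, adjusted p = 0.0767 in limma) and -0.96 ± 0.33 for Tcl1 (1.95-fold, adjusted p = 0.107). Oog1 averaged 5.85 ± 0.33 in experiment 2 and 5.18 ± 0.51 in experiment 1, a difference of 0.67 ± 0.27 (adjusted p = 0.170), and Obox5 had a difference of 0.94 ± 0.49 (adjusted p = 0.339). Those of Obox2 (0.31), Obox6 (0.21, on floored values), Tcl1b2 (0.07) and Tcl1b3 (0.07) were smaller than their standard errors, apart from Obox6, whose standard error was 0.20.

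Limma called 0 of the 8 probes between the experiments, where it called 8.10% of the array (1353 probes, 3.95% higher and 4.15% lower in experiment 2). At an unadjusted p under 0.05 it counted 3 of 8 (Tcl1b1, Tcl1 and Oog1), beside 19.2% of the array. The cells of the experiments were fully apart for 0 of 8 probes, against 3.70% of tested probes with experiment 2 above and 3.97% with it below. The median difference of all tested probes was 0.19, so relative to it Tcl1b1 lay at -1.22 and Tcl1 at -1.16. With normexp that median was -0.76, and relative to it Tcl1b1 lay at -0.34 and Tcl1 at -0.17. Tcl1b1 passed when the test was kept to the 5858 probes well above background in all 12 cells (adjusted p = 0.0424 in limma). That setting called 1336 of the 5858. Tcl1b1 also passed in limma without cell 1 of pair I of experiment 1 (adjusted p = 0.0461, with 1093 probes called over the array). The same held without cell 1 of pair D (0.0487, 1276 called) or of pair G (0.0493, 1124 called) of experiment 2. Oog1 passed with quantile normalization, where its difference was 1.46 and 1775 probes of the array were called.

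**Figure D3:**
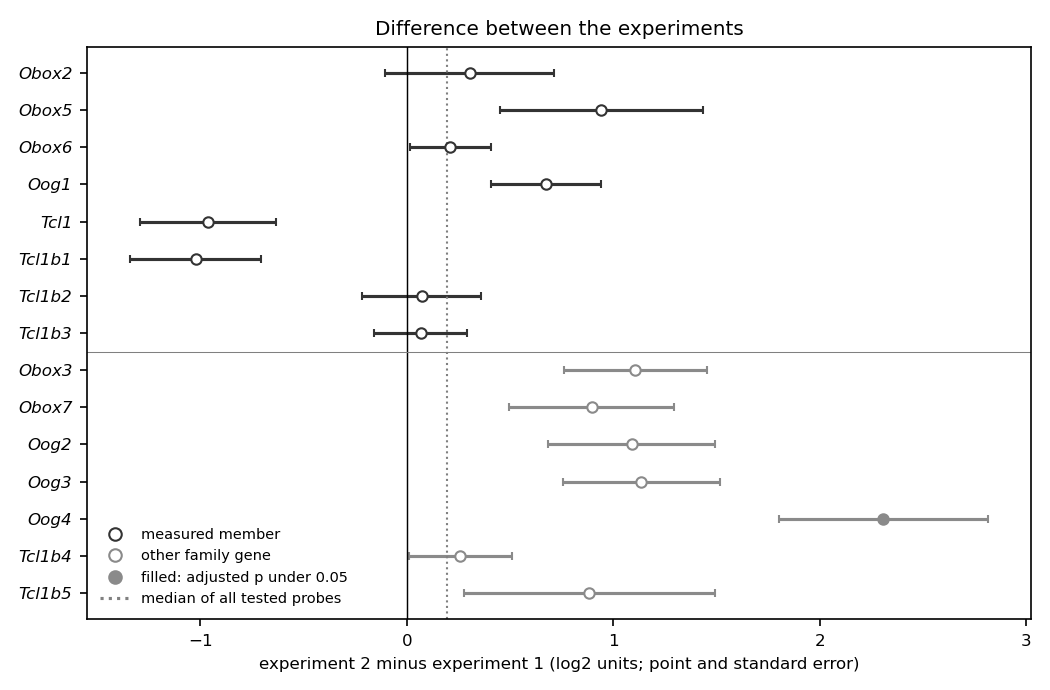
Difference between the experiments, as experiment 2 minus experiment 1 in log2 units, with its standard error from limma, for the 8 measured genes (top) and 7 further genes of the same families (bottom). The dotted line is the median of all tested probes, 0.19. Oog4 is the only filled point, at an adjusted p under 0.05; Tcl1 and Tcl1b1 are the only genes left of 0.

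Of 10 further genes of the families, 8 had a probe and 7 were tested. Mtcp1, a relative of Tcl1, lay at the floor in all 12 cells. All 7 tested genes had a positive difference between the experiments, with a median of 1.09 beside 0.19 for all tested probes, of which 10803 of 16694 were positive. Of the 7, 1 passed, beside 8.10% of the array. Oog4 averaged 0.19 ± 0.45 in experiment 2 and -2.12 ± 1.12 in experiment 1 (4.96-fold higher in experiment 2, adjusted p = 0.0162 in limma) on its brighter probe, while its second probe averaged -1.004 in experiment 2 and -1.85 in experiment 1. Obox3, known as a zygotic Obox gene, averaged 3.54 ± 0.37 in experiment 2 and 2.43 ± 0.71 in experiment 1 (adjusted p = 0.0766), and Oog3 4.06 ± 0.30 in experiment 2 and 2.92 ± 0.90 in experiment 1 (adjusted p = 0.0996; SD, n = 6).

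Between embryos 1 of the 7 passed the F test on all contrasts, beside 1.40% of the array. This was Oog3 (adjusted p = 0.0456 in limma). Its widest span lay in experiment 1, with 3.97 ± 0.18 in pair L and 2.01 ± 0.26 in pair I (SD, n = 2 cells). Pair L was also the highest embryo of experiment 1 for Obox3 (3.23), Obox7 (-1.06) and Tcl1b4 (-0.40), which did not pass (adjusted p from 0.0888 to 0.212), as it was for the 7 genes above. It was not for Oog4, with -2.55 in pair L against -0.79 in pair I on its brighter probe, nor for Oog2 (-3.59 in pair L against -2.83 in pair D) or Tcl1b5 (-2.94 against -2.91).

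How alike the genes ran over the cells was described by Pearson correlation of levels centred within each experiment, over 12 cells that share arrays, slides and scaling. Obox2 and Obox5 correlated at 0.86, and both ran with Obox7, whose promoter is close to that of Obox5 (79.0% identical), at 0.95 and 0.91. The coefficients of Obox2 with Obox5 were 0.82 within experiment 2 and 0.89 within experiment 1 (6 cells each). Obox6 stood apart from both, at 0.17 with Obox2 and -0.16 with Obox5, with 9 of its 12 values at the floor. Whether the 3 probes that ran together bind each other's transcripts was not tested.

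Within the Tcl1 family the 6 coefficients ran from 0.31 to 0.77, with a median of 0.57. Tcl1 and Tcl1b2 were closest (0.77), and Tcl1 and Tcl1b1, the pair with like experiment differences, were the farthest apart (0.31). Between Obox and Tcl1 genes the median of 12 coefficients was 0.17, and the highest was that of Obox5 with Tcl1 (0.82). Some coefficients differed between the experiments: Tcl1b1 and Oog1 correlated at 0.94 there and at 0.39 in experiment 2, and Obox2 and Tcl1b2 at 0.81 there and at -0.55 in experiment 2.

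**Figure D4:**
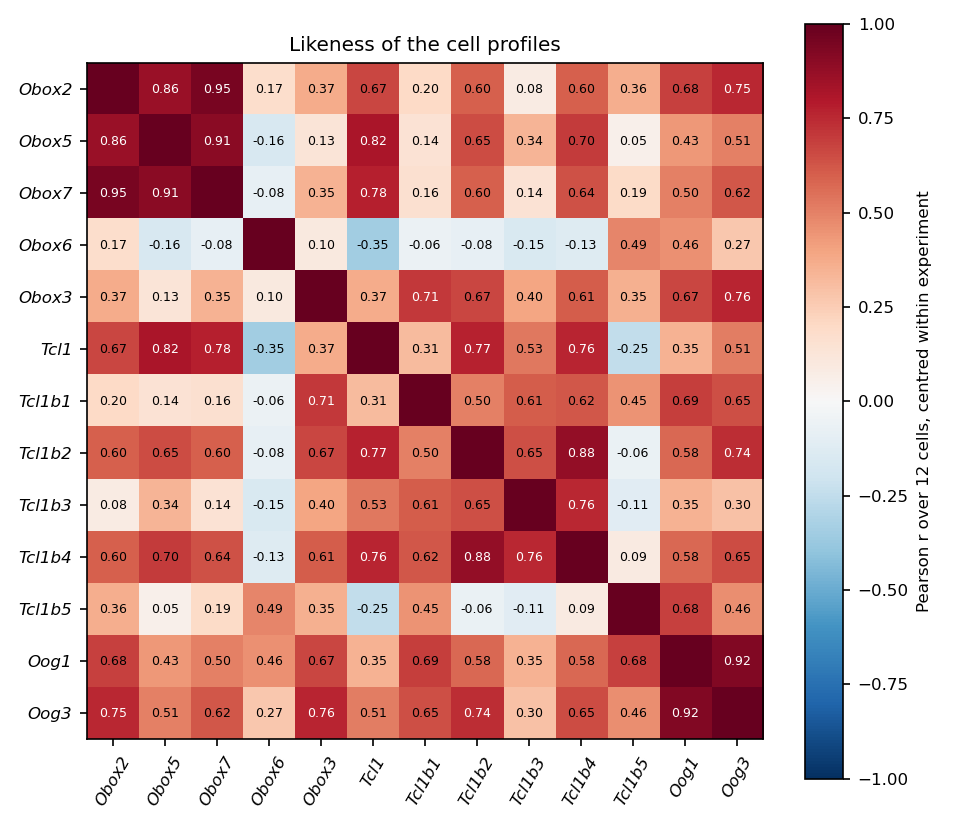
Pearson correlation over the 12 cells, on levels centred within each experiment, between the 8 measured genes and 5 of their relatives. Red is positive and blue negative. Obox2, Obox5 and Obox7 correlate at 0.86 to 0.95 with each other, and Obox6 at 0.17 with Obox2 and -0.16 with Obox5.

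Among 4810 other genes well above background in all 12 cells, those with the profile most like the mean of the 3 Obox genes were Tent2 (0.95), Pla2g4c (0.94), Med30 (0.94), Nedd1 (0.94) and Snx9 (0.94), beside a median of 0.11 over all of them, and Obox7 stood at rank 10. TENT2 (GLD2) is a poly(A) polymerase, PLA2G4C is a phospholipase, MED30 is a subunit of the Mediator complex, NEDD1 anchors gamma-tubulin and SNX9 is a sorting nexin. For the mean of the 4 Tcl1 genes they were Stradb (0.95), Yeats4 (0.93), Tcl1b4 (0.92), Dhx32 (0.92) and the gene the array names Prr6 (0.90), beside a median of 0.04. STRADB is a pseudokinase partner of LKB1 and YEATS4 a reader of acetylated histones, and Tcl1b4 is the one of these that belongs to the family. For Oog1 they were Ppfia1 (0.94), Oog3 (0.92), Tubb3 (0.92), Eif4a1 (0.91) and Tac2 (0.91), beside a median of 0.15.

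The pathways that these proteins are known to touch were counted over lists. Of 20 genes around AKT, 19 had a probe and 18 were tested, and between the experiments 3 fell in experiment 2 and 0 rose, with a median of -0.33 beside 0.19 for all tested probes, of which 4.15% were lower and 3.95% higher. Pdpk1, the kinase that activates AKT, was 3.33-fold lower (adjusted p = 0.0208 in limma), Tsc2, a brake on mTORC1, 4.35-fold lower (0.0154), and Foxo1, a transcription factor that AKT inhibits, 2.12-fold lower (0.0106). Akt1 and Akt2 did not pass, with differences of -0.64 and -1.35. Between embryos 1 of the 18 passed, beside 1.40% of the array: Foxo3, highest in pair H of experiment 2.

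Of 10 Ral pathway genes all were tested, with a median difference of -0.06 between the experiments, and 1 fell in experiment 2, beside 4.15% of the array. Ralb lay at the floor in all 6 cells of experiment 2, against a mean of -0.37 ± 0.77 in experiment 1 (adjusted p = 0.000309 in limma). It was still well above background in 3 of those 6 cells, and the floor set its spread in experiment 2 to 0. Ralgds, the exchange factor that OOG1 binds, averaged 0.54 in experiment 2 and 0.70 in experiment 1 and did not pass (adjusted p = 0.799). Of 17 oocyte and activation transcription factors, 10 were tested and 0 passed between the experiments or between embryos. At an unadjusted p under 0.05 limma counted 4 of 10 between the experiments, beside 19.2% of the array, and 1 of 10 between embryos, beside 29.8%. Nobox was at 0.35 in experiment 2 and 0.49 in experiment 1, and Figla lay at the floor in all 6 cells of experiment 1. Between cell 2 and cell 1, limma called 0 genes of any of these lists, beside 0% of the array. At an unadjusted p under 0.05 it counted 1 of 18 AKT genes, 0 of 10 Ral genes and 2 of 10 transcription factors, beside 4.41% of the array. The oviduct and blood marker sums given above also differed between the experiments, as did dye, scan protocol and slides. The part of any of these in the experiment counts was not tested.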

How the data were processed

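RNA of 12 single blastomeres was amplified and hybridised to Agilent arrays, per the labels' protocols. The deposited scanner files hold intensity values per spot, which the authors obtained as background-corrected processed signals; per the file headers the software was Feature Extraction 9.1.3.1. The processed signal of the channel that held the RNA was used. Outlier spots were dropped, and signals were divided by the array's 75th percentile taken over the 5858 probes that every one of the 12 arrays detected, since most spots were not detected on 9 arrays. A common floor of 0.0574 was set before log2. The deposited value table was an alternative. For the brighter probes well above background it held the same processed signals on a linear scale, times a constant for each array. Its dim values were not compared in this way.

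The 16694 of 41174 probes that 6 or more arrays detected were fitted with limma 3.58.1 in R 4.3.3 and adjusted over all of them by Benjamini-Hochberg. Embryos were compared by an F test within experiments, cells with embryo as a block, and experiments with embryo as a random block (duplicateCorrelation). The procedure was tested on simulated data. The number of arrays limits the precision. Genes were named from RefSeq accessions for 22951 probes and from the files for 11758, and 6465 were unnamed. Where genes of the lists had several probes, the brighter one was used. Members, lists and tests were chosen with earlier results of these data known. By the rule for named genes, the text could name the members, any gene of the lists and the 5 genes most like each profile. Results for some genes of the lists are not reported here. Promoters were aligned with Biopython 1.88.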

Additional observations from a re-analysis of the deposited data

Results flagged for a closer look

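In groups of 6 cells, 2 values stood apart from the rest of their group by Dixon's criterion, which chance meets in about 1 in 20 groups. Obox6 in cell 2 of pair D of experiment 2 was at -3.15, with a gap to the next cell of 0.716 of the group's range, in a group where 3 cells lay at the floor. Tcl1b3 in cell 1 of pair G of experiment 2 was at 0.41, with a gap of 0.628 of the range.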

How the results depend on the processing

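Between embryos, 1 of the 8 probes passed with the 75th percentile over all probes (Obox2), 1 with quantile normalization (Obox2), 1 with normexp (Obox6) and 1 with a floor for each array (Obox6), and 0 to 2 passed when 1 cell was left out. The array as a whole went to 334, 464, 6698 and 4356 called probes under those 4 settings, beside 234, and to between 0 and 3875 without 1 cell. It went to 1 with a lower common floor and with the deposited table, to 30 of the 5858 probes detected everywhere, to 2752 with no filter, and to 36 without probes that never differed within a pair, a setting chosen after seeing the data. Between experiments, 1 passed with quantile normalization (Oog1), 1 of the 6 tested among probes detected on all arrays (Tcl1b1) and 0 to 1 without 1 cell. The array there had 1775 called probes of 16694 and 1336 of 5858, and between 796 and 1561 without 1 cell, beside 1353 in the main setting. For cell number and its interaction 0 passed under every setting run, where the whole array also had 0 called probes.

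Directions turned as follows. For cell 2 minus cell 1, the 75th percentile over all probes shifted probes together (all-probe median -0.15, against 0.11) and gave -0.24 for Obox2, -0.45 for Obox5, -0.44 for Tcl1b2, -0.45 for Tcl1b3 and -0.32 for Oog1, quantile normalization -0.043 for Obox2 and normexp -0.061 for Obox5. Experiment 2 alone gave -0.049 for Obox2, -0.54 for Obox5, -0.046 for Tcl1b2, -0.29 for Tcl1b3 and -0.013 for Oog1, and experiment 1 alone 0.29 for Tcl1 and 0.25 for Tcl1b1. With normexp the interaction of Obox2 was 0.068, and the experiment difference was -0.44 for Obox2 and -0.94 for Obox6, beside an all-probe median of -0.76, from which Tcl1b1 differed by -0.34 and Tcl1 by -0.17. Without 1 cell, the cell difference ran from -0.17 to 0.26 for Obox5, from -0.19 to 0.038 for Tcl1, from -0.037 to 0.17 for Tcl1b2 and from -0.083 to 0.16 for Tcl1b3, and the experiment difference from -0.056 to 0.20 for Tcl1b2 and from -0.027 to 0.16 for Tcl1b3. The cause was not tested.

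The share of called probes that were higher in experiment 2 was 48.8% of 1353. It was 12.7% of 173 with the percentile over all probes, 12.6% of 427 with normexp, 25.5% of 368 with a floor for each array, 35.8% of 709 with a lower common floor and 34.8% of 575 with the deposited table. Cells numbered alike in different embryos did not deviate together (r from -0.08 to 0.26 over 15 embryo pairs, 3 above 0.1). With cell number as a replicate block 0 of the 8 probes passed between embryos, where 0 of the 16694 tested probes did. Between experiments 0 of the 8 passed with that block, beside 1192 probes of the array. Without the embryo block 0 of the 8 passed between cells, beside 0 probes of the array. Obox2 and Obox6 sit near background, where signal limits what can be seen.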
